A study of Mus musculus with 14 samples.

Results

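The genes examined here encode nuclear subunits of the oxidative phosphorylation system, the machinery of the inner mitochondrial membrane that makes ATP. The members were 40 genes listed by complex: 18 subunits of complex I, 4 of complex II, 6 of complex III, cytochrome c (Cycs), 6 subunits of complex IV and 5 of complex V. All 40 were present among the 23284 genes of each counts file, and all 40 passed the filter on low counts, as did 14804 genes in all. The fewest counts of any member in any library were 384, so counting error was small beside the differences between tumours.

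In oxidative phosphorylation, complexes I and II pass electrons from NADH and succinate to ubiquinone, complex III passes them on to cytochrome c, and complex IV, cytochrome c oxidase, passes them to oxygen. Complexes I, III and IV pump protons across the membrane, and complex V, the ATP synthase, uses the returning protons to make ATP. Most subunits are encoded in the nucleus and the remainder in the mitochondrial genome; the mitochondrially encoded subunits were not analysed here. In many cell types the nuclear genes are controlled by the factors NRF1, NRF2 (an ETS-family protein), ERR-alpha and YY1 and by coactivators of the PGC-1 family, and CREB can act at the cytochrome c gene.

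RNA came from 14 primary small cell lung cancers of genetically engineered mice, a neuroendocrine lung carcinoma. In 7 tumours, called RP here, the labels give the genotype Rb1/Trp53, and in the other 7, called RPC here, Rb1/Trp53/Crebbp; loss of the tumour suppressors Rb1 and Trp53 was thus shared by both groups, and Crebbp, a histone acetyltransferase and partner of CREB, was the added target in RPC. The labels used here give no agent, age, strain, Cre driver or deleted exon. Tumours are numbered, with no statement that they are from separate mice, and p-values here therefore speak of the spread among these 14 samples, which may be partly technical.

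Libraries held 10060969 to 24052799 counts in genes. The neuroendocrine markers Chga, a granin of secretory granules, and Syp, a vesicle protein, were present in every library, at 215 to 1020 and 116 to 275 CPM (counts per 1000000 of the library total after TMM scaling). Neither passed the test between genotypes (edgeR adjusted p = 0.817 and 0.342). For Crebbp itself the means were 76.6 ± 13.9 CPM (RP) and 64.7 ± 4.24 CPM (RPC; SD, n = 7 a group), with overlapping ranges (difference in mean log2 CPM -0.23, exact two-sided permutation test, p = 0.0565), and reads of exons outside a deletion count towards this level. RPC tumours 3, 5 and 6 stood apart: the summed level of 6 macrophage markers was 3.30 to 6.61 CPM there and 212 to 1690 CPM in the other 11. The fibroblast collagen Col3a1 was at most 0.63 CPM against at least 79.2 CPM. Not every marker was low: in RPC 5 the fibroblast and endothelial markers summed to 126 and 85 CPM. Among these 3 libraries the fibroblast marker Pdgfra reached 117 CPM and the endothelial marker Kdr 82.8 CPM. Their RP maxima were 39 and 29.3 CPM. Alveolar type 2 markers summed to 10.1 CPM in RPC 4, and to 9.1 to 19.6 CPM in these 3 libraries. In bulk tissue, fewer cells of a type and less RNA per cell cannot be told apart. The main results are therefore also given without these 3 libraries.

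Most members had higher mean levels in RPC than in RP tumours, but a single member, Ndufb8, passed the test. The log2 fold change of RPC over RP was positive for 38 of 40 members and negative for 2, with a median of 0.31 and a range of -0.17 to 0.89; over all genes tested 50.2% were positive and the median was 0.00, and over the 7815 genes with a mean of at least 30 CPM, a level nearer to that of the members, 57.2% were positive and the median was 0.06. At an adjusted p under 0.05 (edgeR quasi-likelihood F test, Benjamini-Hochberg over all genes tested), 1 member was higher and none lower, against 1.09% of all genes higher and 1.12% lower. At an unadjusted p under 0.05, 10 members were higher and 0 lower, against 10.3% and 11.1% of all genes. Standard errors of the members' log2 fold changes ran from 0.10 to 0.27. Without RPC tumours 3, 5 and 6, 33 members were positive against 49.0% of genes, the median was 0.12, 1 member passed the unadjusted threshold (4.83% of genes) and none the adjusted one (0.0195% of genes). With the mean log level of non-tumour markers (endothelial, fibroblast, macrophage, T and NK, alveolar type 2 and club cells) as a term in the edgeR model, 28 members were positive, the median was 0.05 and 3 passed the unadjusted threshold. Over all 14804 genes that fit gave 47.9% positive, a median of -0.02 and 641 genes higher at the unadjusted threshold. No RP tumour had a mean level of these markers as low as RPC 3, 5 and 6. At that level genotype and marker content therefore cannot be told apart.

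**Figure D1:**
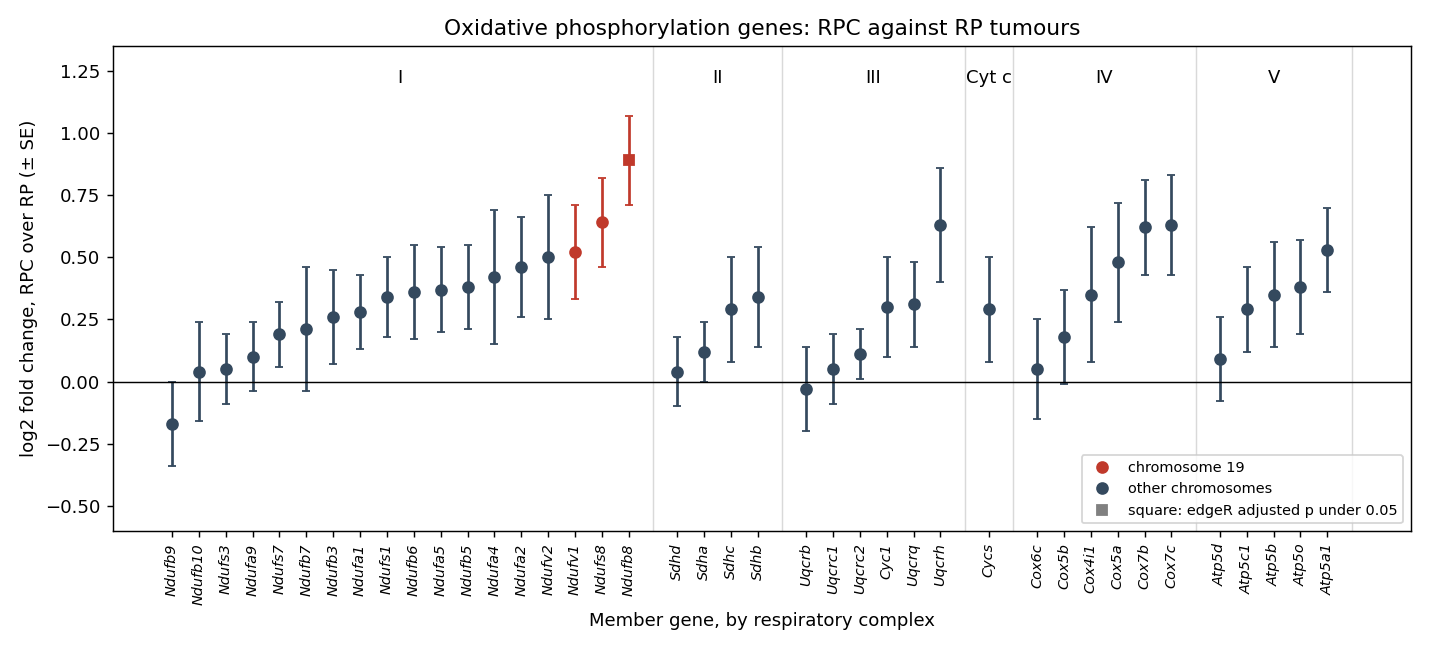
Log2 fold change of RPC over RP for each of the 40 members (y axis, points; bars are 1 SE of the edgeR fit, 7 libraries in each group), ordered by complex and by size within it (x axis). Members on chromosome 19 are red and a square marks an adjusted p under 0.05; 38 points lie above 0, and Ndufb8, at 0.89, lies highest.

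The tumours of each genotype overlapped for all 40 members. No member had every RPC value above every RP value, a pattern shown by 0.513% of all genes tested. Against the RP median, 7 members had all 7 RPC values above it and 32 had at least 5. The share of all genes with these patterns against the median was not computed, so these counts are description only. The members tended to be high or low together within a library. Set against each member's own median over the 14 libraries, 38 of 40 members were high in RPC tumour 3, 37 in RPC 5, 35 in RPC 6 and 33 in RPC 4. The corresponding counts in RPC tumours 1, 2 and 7 were 23, 19 and 6. Among RP tumours, 31 members were high in tumour 3, while the other 6 tumours had 4 to 16. The genotype groups were thus mixed at both ends: RP 3 held the highest RP value of 28 members, and RPC 7 held the lowest RPC value of 23. The members' share of all gene counts was 0.473% to 0.704% in RP and 0.555% to 0.811% in RPC. RP 3 also had the highest summed level of cardiac and skeletal muscle markers, 112 CPM against 1.16 to 46.4 CPM in the other 13 libraries; the part of muscle RNA in the members' levels there was not tested.

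**Figure D2:**
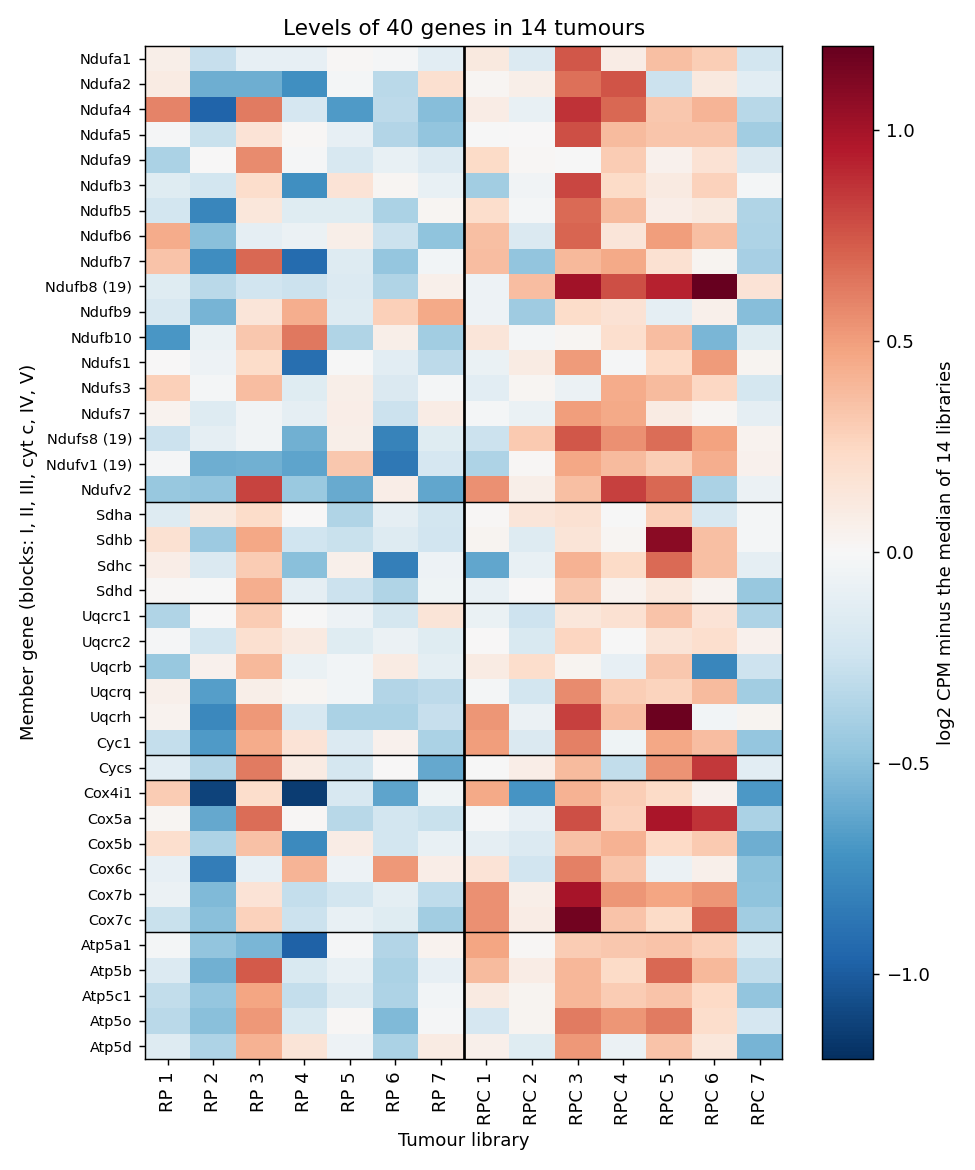
Level of each member (rows, in blocks for complexes I, II, III, cytochrome c, IV and V) in each of the 14 tumours (columns), as log2 CPM minus the member's median over the 14 libraries, red above it and blue below it. The columns of RPC 3, 4, 5 and 6 are mostly red, with 33 to 38 of 40 members above their median, and RP 3 is red in 31 while RPC 7 is blue in all but 6.

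Complex I, the entry point for electrons from NADH, had 18 members, of which 17 were positive, 6 passed the unadjusted threshold and 1, Ndufb8, the adjusted one. Over all genes, 10.3% were higher at the unadjusted threshold and 1.09% at the adjusted one. The median log2 fold change of the 18 members was 0.35, and 0.14 without RPC tumours 3, 5 and 6. Ndufb8 and Ndufs8 are shown here because they had the largest log2 fold changes in the complex and because each carries a match to a motif of a known regulator of respiratory genes. The windows run from 250 bases before to 50 bases after the RefSeq transcription start on GRCm38.p6, 5′ to 3′ on the strand of the gene. Capitals mark the letters AAGATGGC, the YY1 motif, in Ndufb8 (chr19:44555393-44555692, minus strand), and the reverse complement of CCGGAAG, the ETS motif that NRF2 binds, in Ndufs8 (chr19:3912725-3913024, minus strand).
Ndufb8: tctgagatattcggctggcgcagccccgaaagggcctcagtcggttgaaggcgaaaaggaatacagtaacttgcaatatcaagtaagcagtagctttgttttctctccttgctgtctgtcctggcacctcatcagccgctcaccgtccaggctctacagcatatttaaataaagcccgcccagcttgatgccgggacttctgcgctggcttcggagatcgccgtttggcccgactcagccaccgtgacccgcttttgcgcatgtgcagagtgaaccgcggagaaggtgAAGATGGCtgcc
Ndufs8: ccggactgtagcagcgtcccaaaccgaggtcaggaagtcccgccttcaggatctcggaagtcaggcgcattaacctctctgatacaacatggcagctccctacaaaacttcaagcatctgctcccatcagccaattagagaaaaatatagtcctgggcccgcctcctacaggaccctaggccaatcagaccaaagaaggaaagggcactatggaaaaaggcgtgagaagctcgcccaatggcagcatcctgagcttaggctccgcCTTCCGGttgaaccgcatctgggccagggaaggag

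Ndufb8, an accessory subunit of the membrane arm of complex I, ranged from 46.4 to 62.2 CPM with a median of 50.9 in RP tumours, and from 57.2 to 137.5 CPM with a median of 102 in RPC tumours. Of the 7 RPC values, 6 lay above every RP value, and RPC 1 lay within the RP range. The log2 fold change was 0.89 with an SE of 0.18 (edgeR adjusted p = 0.0275), and 0.54 without RPC tumours 3, 5 and 6 (edgeR adjusted p = 0.22). Its spread was unequal: the SD of log2 CPM was 0.14 in RP and 0.47 in RPC, as the 4 tumours numbered 3 to 6 reached 102 to 137.5 CPM and the remaining 3 stayed at 57.2 to 77.1 CPM.

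Ndufs8, an iron-sulfur subunit of the arm that reaches into the matrix, had an RP range of 22.6 to 41.4 CPM (median 35.6) and an RPC range of 32.9 to 66.4 CPM (median 55.3). RPC 2 to 6 exceeded every RP tumour, and RPC 1 and 7 did not. The log2 fold change was 0.64 with an SE of 0.18 and did not pass the test (edgeR adjusted p = 0.0743). Ndufv1, the flavoprotein that oxidises NADH, lay between 67.9 and 153.5 CPM (median 82.3) in RP and between 95.3 and 169.8 CPM (median 150.5) in RPC. The groups overlapped more, since RP 5 lay above 4 of the 7 RPC tumours, and the log2 fold change of 0.52 with an SE of 0.19 did not pass (edgeR adjusted p = 0.141).

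The other 15 complex I members lie on other chromosomes. Of these, 14 were positive and none passed the adjusted threshold. The unadjusted one was passed by 3, against 10.3% of all genes higher: Ndufa2, Ndufa5 and Ndufb5, with log2 fold changes of 0.46, 0.37 and 0.38. Ndufa4, first described in complex I and now known as a subunit of complex IV, had the highest level per transcript length of the complex I list in RP tumours, 199 ± 88.9 CPM per kb (SD, n = 7). Its values ran from 66.4 to 200.3 CPM (median 104) in RP and from 103 to 236 CPM (median 162) in RPC, so the RPC median lay within the RP range, and the fold change was 0.42 on the log2 scale (SE 0.27, edgeR adjusted p = 0.376). Ndufb9, an accessory subunit, was the member with the largest negative value. It ranged from 75.8 to 152.6 CPM (median 123) in RP and from 78.1 to 129.6 CPM (median 107) in RPC, and 2 of 7 RPC values lay above the RP median (log2 fold change -0.17, SE 0.17, edgeR adjusted p = 0.588).

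Complex II, succinate dehydrogenase, belongs to both the respiratory chain and the tricarboxylic acid cycle. Its 4 members had a median log2 fold change of 0.21, all 4 were positive and none passed even the unadjusted threshold. The median was 0.11 without RPC 5 alone. Sdhb, the iron-sulfur subunit, ranged from 96.8 to 179.9 CPM (median 112) in RP and from 118 to 276.3 CPM (median 134) in RPC. All 7 RPC values were above the RP median, but only RPC 5 lay above the RP maximum, and it held the top of the range alone, with the next value at 168 CPM. The log2 fold change was 0.34 with an SE of 0.20 (edgeR adjusted p = 0.348) and 0.04 without RPC tumours 3, 5 and 6. Sdhc, a membrane anchor, was the member with the lowest level per transcript length in RP, 16.4 ± 4.04 CPM per kb (SD, n = 7). It ran from 31.8 to 69.7 CPM (median 53.9) in RP and from 36.5 to 90.2 CPM (median 66.0) in RPC, with RPC 1 among the low RP values, and the fold change was 0.29 on the log2 scale (SE 0.21, edgeR adjusted p = 0.434). Sdhd, the other anchor, had nearly equal means (a log2 difference of 0.04 with an SE of 0.14, edgeR adjusted p = 0.874). Its window is shown because it was the one member window that held 3 of the motifs searched. Capitals mark, in order, the NRF1 motif (GCGC, any base, then TGCGC), the ETS motif and the ERR motif TCAAGGTCA, all 3 as reverse complements, at chr9:50603800-50604099 on the minus strand.
Sdhd: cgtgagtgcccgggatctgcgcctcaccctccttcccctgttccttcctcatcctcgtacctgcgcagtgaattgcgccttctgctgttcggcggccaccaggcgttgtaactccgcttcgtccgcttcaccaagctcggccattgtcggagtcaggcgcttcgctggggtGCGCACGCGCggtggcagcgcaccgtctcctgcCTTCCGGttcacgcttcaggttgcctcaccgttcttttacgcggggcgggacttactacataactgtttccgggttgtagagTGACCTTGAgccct

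Complex III, ubiquinol-cytochrome c reductase, had 6 members with a median log2 fold change of 0.21. Of these, 5 were positive and 1 was past the unadjusted threshold, against 10.3% of all genes higher. The median was 0.13 without RP 2 alone. The member past the threshold was Uqcrh, the hinge protein that helps to dock cytochrome c. It ranged from 62.5 to 153.6 CPM (median 88.4) in RP and from 102 to 241.3 CPM (median 138) in RPC. All RPC values lay above the RP median, 3 of them above RP 3, the highest RP tumour, and the log2 fold change was 0.63 with an SE of 0.23 (edgeR adjusted p = 0.139). Uqcrq, a small subunit, lay at 67.2 to 112 CPM (median 104) in RP and 79.8 to 158 CPM (median 128) in RPC; RPC 2 and 7 were below the RP median, and the log2 fold change was 0.31 (SE 0.17, edgeR adjusted p = 0.308). The core proteins Uqcrc1 and Uqcrc2 had log2 fold changes of 0.05 and 0.11 with SEs of 0.14 and 0.10. Uqcrc2 was among the steadiest members, with an SD of log2 CPM of 0.15 in each genotype.

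Cycs encodes cytochrome c, the soluble carrier between complexes III and IV, which also triggers caspase activation when it leaves mitochondria. Its promoter is shown because the CREB motif TGACGTCA, in capitals (chr6:50566520-50566819, minus strand), was matched in no other of the 29 members with a window, and Crebbp is a coactivator of CREB.
Cycs: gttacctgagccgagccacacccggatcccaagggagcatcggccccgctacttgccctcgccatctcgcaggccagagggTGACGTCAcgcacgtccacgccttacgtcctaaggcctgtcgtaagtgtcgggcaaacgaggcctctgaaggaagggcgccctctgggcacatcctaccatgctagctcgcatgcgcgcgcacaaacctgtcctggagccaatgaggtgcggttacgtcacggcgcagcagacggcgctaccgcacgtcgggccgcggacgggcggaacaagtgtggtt

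Cycs ranged from 123 to 289 CPM (median 171) in RP and from 153 to 336.5 CPM (median 198) in RPC. RPC 6 alone exceeded RP 3, so the groups overlapped over nearly all of their ranges. The log2 fold change was 0.29 with an SE of 0.21 (edgeR adjusted p = 0.44), and -0.04 without RPC tumours 3, 5 and 6.

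Complex IV had the largest median log2 fold change of the complexes over all libraries, 0.42, and complex V had it without RPC tumours 3, 5 and 6. All 6 complex IV members were positive and 2 passed the unadjusted threshold, against 10.3% of all genes higher. Both members past it were small accessory subunits of cytochrome c oxidase. Cox7b lay at 53.9 to 87.4 CPM (median 66.8) in RP and at 55.6 to 154 CPM (median 112) in RPC; 5 RPC tumours exceeded every RP tumour, while RPC 7 sat near the bottom of the RP range. Its log2 fold change was 0.62 with an SE of 0.19, and its adjusted p was the smallest of the 37 members off chromosome 19 (edgeR adjusted p = 0.0849). Cox7c lay at 73.9 to 127 CPM (median 87.7) in RP and at 78.3 to 233.8 CPM (median 132) in RPC, with 4 RPC values above RP 3, the highest RP value (log2 fold change 0.63, SE 0.20, edgeR adjusted p = 0.105). Cox4i1, a regulatory subunit of the oxidase, had the highest level per length of the complex in RP, 444 ± 170 CPM per kb (SD, n = 7). Its range was wide in both groups, from 182 to 492.6 CPM (median 350.8) in RP and from 244.6 to 549.5 CPM (median 469.7) in RPC, and its log2 fold change was 0.35 with an SE of 0.27 (edgeR adjusted p = 0.472). The complex median fell from 0.42 to 0.12 when RPC tumours 3, 5 and 6 were left out, and Cox5a, at 0.48 with all libraries, was at 0.02 there.

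Complex V members had a median of 0.35 and all 5 were positive, with 1 past the unadjusted threshold, against 10.3% of all genes higher. Atp5a1 and Atp5b encode the alpha and beta subunits of the catalytic head of the ATP synthase. Atp5a1 ranged from 386.4 to 777.8 CPM (median 590.4) in RP and from 663.9 to 1052 CPM (median 934) in RPC. All RPC tumours but 2 and 7 exceeded every RP tumour. The log2 fold change was 0.53 with an SE of 0.17 (edgeR adjusted p = 0.105), and it moved little, to 0.48, without RPC tumours 3, 5 and 6. Atp5b had the highest level per length of all 40 members in RP, 577 ± 195 CPM per kb (SD, n = 7). It ran from 771 to 1914 CPM (median 1021) in RP, the top value being RP 3 with the next at 1076 CPM, and from 936.9 to 1854 CPM (median 1489) in RPC, all below RP 3. Its log2 fold change was 0.35 with an SE of 0.21 (edgeR adjusted p = 0.354). Atp5o, which encodes the stalk subunit OSCP, was at 123 to 255.1 CPM (median 156) in RP and 154 to 274.4 CPM (median 206) in RPC, and 3 RPC tumours lay above RP 3, the highest RP tumour (log2 fold change 0.38, SE 0.19, edgeR adjusted p = 0.277).

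Side by side, the complex medians were 0.35 for I, 0.21 for II, 0.21 for III, 0.42 for IV and 0.35 for V, and the member ranges of the complexes overlapped: -0.17 to 0.89, 0.04 to 0.34, -0.03 to 0.63, 0.05 to 0.63 and 0.09 to 0.53. Without RPC tumours 3, 5 and 6 the medians were 0.14, 0.02, 0.04, 0.12 and 0.17. In that fit 1 complex I member passed the unadjusted threshold and no member of complexes II to V did, against 4.83% of genes higher. The differences between complexes were not tested, since members of a complex share the same libraries and are not replicates. The spread between tumours was described by the SD of log2 CPM within a genotype. The members' median SD was 0.32 in RP and 0.36 in RPC, against 0.48 and 0.46 over all genes tested and 0.39 and 0.35 over genes with at least 30 CPM. Within RP the SD ran from 0.11 for Ndufa1 to 0.61 for Ndufa4.

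The 3 members on chromosome 19, Ndufb8, Ndufs8 and Ndufv1, had the 3 largest log2 fold changes of complex I over all libraries. Without RPC tumours 3, 5 and 6 they did not: Ndufv2, at 0.54, and Ndufa2, at 0.47, then lay above Ndufs8, at 0.43, and Ndufv1, at 0.36. With all libraries, all 3 passed the unadjusted threshold, at which 236 of the 501 tested genes of chromosome 19 were higher. The median of the 3 members was 0.64 against 0.28 for the other 15 complex I members. In the fit without these libraries the medians were 0.43 and 0.13. Chromosome 19 as a whole differed in the same direction: 85 of its 501 tested genes, 17.0%, were called higher and none lower, and the median log2 fold change of the 501 genes was 0.46 (0.39 without the 3 libraries). A call on a chromosome 19 member is therefore read against 17.0% and not against 1.09%. The chromosomes of genes come from GRCm38.p6, matched by symbol.

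The library values show how the chromosome 19 members and the rest of complex I moved. The median distance of the 3 chromosome 19 members from their own 14-library medians, less that of the 15 others, was -0.63 to 0.17 with a median of -0.15 in RP tumours, and -0.35 to 0.43 with a median of 0.27 in RPC tumours. In 6 of 7 RPC tumours it was positive, from 0.17 to 0.43, and RPC 1 was the exception. The 371 other expressed genes of chromosome 19, none of them in the lists here, had a median distance of -0.43 to -0.02 in RP and of 0.23 to 0.43 in RPC 2 to 7, and RPC 1 was again low at -0.11. RPC 7 shows the contrast within a library: its chromosome 19 genes were at 0.23 and its 3 chromosome 19 members at 0.06, while its 15 other complex I members were at -0.21. Copy number was not measured by these files.

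**Figure D3:**
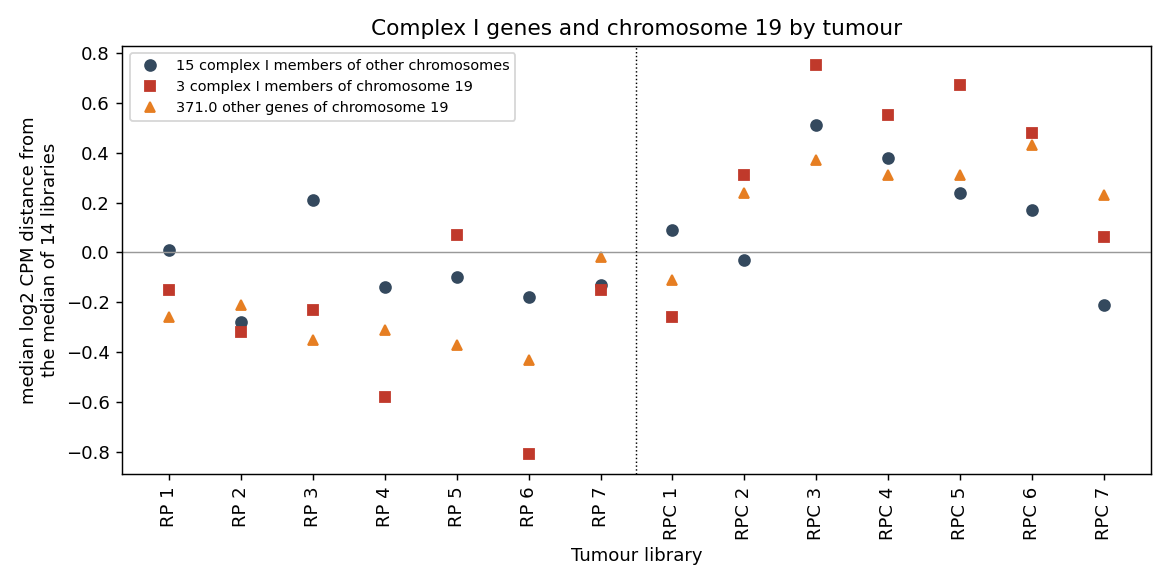
Median distance in log2 CPM from each gene's own median over 14 libraries (y axis) for each tumour (x axis), for the 15 complex I members of other chromosomes, the 3 complex I members of chromosome 19 and 371 other genes of chromosome 19. The triangles of RPC 2 to 7 lie at 0.23 to 0.43, above all RP tumours, and RPC 1 lies at -0.11; the circles overlap between the genotypes.

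The same comparison was made for 105 tested genes of the system that are no members, in lists of the other subunits, their tissue-restricted isoforms, assembly factors, regulators of mitochondrial biogenesis and enzymes of the tricarboxylic acid cycle. Of these 105 genes 91 were positive, 4 were called higher and 0 lower, with a median of 0.21. Over all genes tested 50.2% were positive, 1.09% were called higher and 1.12% lower, with a median of 0.00. Over the genes with a mean of at least 30 CPM, 57.2% were positive and the median was 0.06. Without RPC tumours 3, 5 and 6, 81 of the 105 were positive with a median of 0.13, against 49.0% of genes. With the term for non-tumour markers, 77 were positive with a median of 0.09, against 47.9% of genes. The 4 called genes were Cox8a, Cox15, Sdhaf2 and Esrra, and all 4 lie on chromosome 19. Over members and non-members together, 10 tested genes lie on chromosome 19. All 10 were positive, 5 were called higher and their median was 0.79. The genes of other chromosomes had 119 of 135 positive, none called and a median of 0.21. Over all 501 tested genes of chromosome 19, 75.8% were positive, 17.0% were called higher and the median was 0.46. Without RPC tumours 3, 5 and 6 none of the 10 was called, all were positive and the median was 0.58, against 0.12 for the other 135.

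Cox8a, the ubiquitous form of a small complex IV subunit, ran from 76.8 to 118.5 CPM (median 96.9) in RP and from 108 to 244.4 CPM (median 173) in RPC. Only RPC 7 fell within the RP range, and the log2 fold change was 0.86 with an SE of 0.17 (edgeR adjusted p = 0.0255). Cox15, which makes the heme A of complex IV, was at 27.3 to 36.4 CPM (median 28.8) in RP and 35.9 to 71.3 CPM (median 50.3) in RPC, with RPC 1 alone below the highest RP tumour (log2 fold change 0.76, SE 0.15, edgeR adjusted p = 0.0244). Sdhaf2, which attaches the flavin of complex II, was at 17.6 to 27.4 CPM (median 22.5) in RP and 24.9 to 43.0 CPM (median 39.7) in RPC, again with RPC 1 alone inside the RP range (log2 fold change 0.69, SE 0.16, edgeR adjusted p = 0.0375).

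Esrra encodes ERR-alpha, a nuclear receptor that drives respiratory genes with PGC-1 coactivators. It ran from 15.8 to 23.7 CPM (median 19.7) in RP and from 26.2 to 41.4 CPM (median 30.9) in RPC. Esrra was the 1 chromosome 19 gene of the lists whose groups did not overlap, and its log2 fold change was 0.66 with an SE of 0.15 (edgeR adjusted p = 0.041). Pprc1, the PGC-1-related coactivator, is also on chromosome 19 and ran from 27.6 to 70.3 CPM (median 31.5) in RP and from 48.7 to 104.7 CPM (median 72.2) in RPC; its log2 fold change of 0.84 (SE 0.23) did not pass (edgeR adjusted p = 0.0693). Usmg5, a small subunit of the ATP synthase on the same chromosome, was at 38.5 to 75.1 CPM (median 47.4) in RP and 57.9 to 157 CPM (median 97.8) in RPC (log2 fold change 0.92, SE 0.24, edgeR adjusted p = 0.0556).

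**Figure D4:**
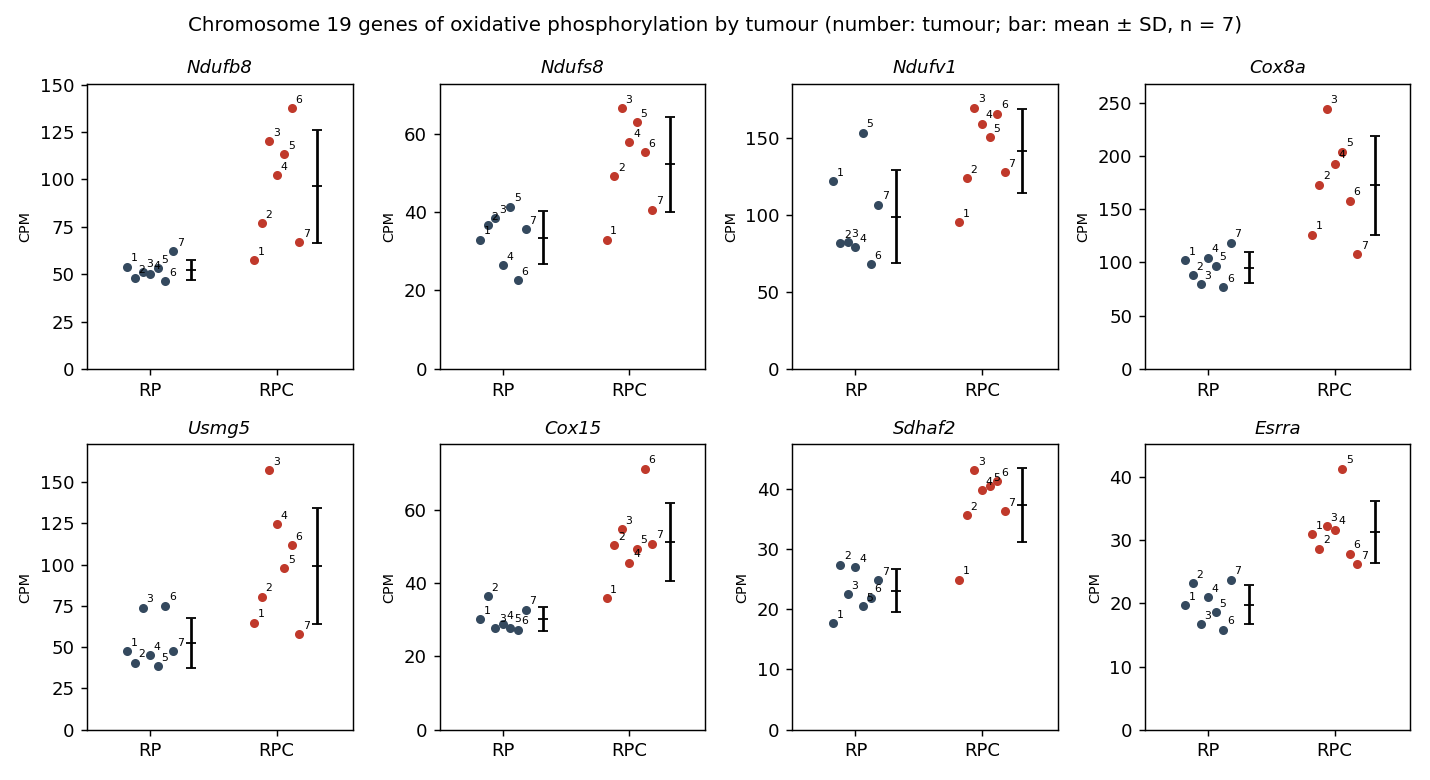
CPM (y axis, from 0) of 8 chromosome 19 genes of the lists in each tumour, with tumour numbers beside the points and bars for the mean ± SD of 7 libraries per genotype. The lowest RPC point is RPC 1 in 5 panels and RPC 7 in 3, and Esrra is the 1 panel in which no RPC point reaches down to an RP point.

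Of the 37 other subunits of complexes I, III, IV and V, 36 were positive, against 50.2% of all genes. All 19 other complex I subunits had a log2 fold change that was not negative, with a median of 0.19. The unadjusted threshold was passed by 6 of them, against 10.3% of all genes higher. Without RPC tumours 3, 5 and 6, 15 of the 19 were positive, the median was 0.15 and none passed it, against 4.83% of genes. Over all libraries, Ndufa3 stood at 0.55 on the log2 scale with an SE of 0.19 (edgeR adjusted p = 0.125). Ndufa13 stood at 0.63 with an SE of 0.23 (edgeR adjusted p = 0.145). All 7 RPC values of both lay above the RP median. Ndufs5 had the largest value of the list, 2.06, from 26.7 CPM in RPC 3 and 3.90 CPM in RPC 5 while no other library passed 1.84 CPM (SE 0.80, edgeR adjusted p = 0.16); it was named after its values were seen. All 11 other ATP synthase subunits were positive, with a median of 0.37 (0.21 without RPC tumours 3, 5 and 6, again all positive). The unadjusted threshold was passed by 6 of them, against 10.3% of all genes higher, and by 2 without these libraries, against 4.83%. Atp5f1, the peripheral stalk subunit b, was among the 6 (log2 fold change 0.47 ± 0.18 SE, edgeR adjusted p = 0.146). The 4 other complex IV subunits had a median of 0.30, with Cox6a1 at 0.35 (SE 0.19, edgeR adjusted p = 0.307), and the 3 other complex III subunits a median of 0.08, with Uqcrfs1, the Rieske iron-sulfur protein, at 0.21 (SE 0.16, edgeR adjusted p = 0.463) and Uqcr11 at 0.08 (SE 0.19, edgeR adjusted p = 0.836).

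Some subunits have isoforms typical of muscle or other tissues. Of the 5 tested, 2 were positive and the median was -0.19. Cox7a1, the heart and muscle form of a complex IV subunit, was at 0.85 to 3.07 CPM (median 1.82) in RP and 0.59 to 1.58 CPM (median 0.87) in RPC. No RPC value reached the RP median, although the ranges overlapped (log2 fold change -0.83, SE 0.37, edgeR adjusted p = 0.213). Ndufa4l2, a hypoxia-responsive relative of Ndufa4, was at 2.02 to 9.43 CPM in RP and 0.18 to 7.72 CPM in RPC (log2 fold change -0.88, SE 0.70, edgeR adjusted p = 0.485).

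Assembly factors, which build the complexes without staying in them, had 34 tested genes, of which 28 were positive with a median of 0.20, 2 were called higher and none lower. Ndufaf3, an assembly factor of complex I, ran against the list and was chosen after its values were seen. It was at 27.2 to 43.1 CPM (median 35.6) in RP and 15.8 to 28.0 CPM (median 21.8) in RPC. All 7 RPC values lay below the RP median and 2 of them, RPC 3 and 6, above the lowest RP tumour, with a log2 fold change of -0.61 and an SE of 0.16 (edgeR adjusted p = 0.0621). Without RPC tumours 3, 5 and 6 its log2 fold change was -0.74 (edgeR adjusted p = 0.161). Of the 15 regulators of biogenesis 13 were positive with a median of 0.16, 1 was called higher, Esrra, and none lower. Of the 14 enzymes of the tricarboxylic acid cycle 12 were positive with a median of 0.19, and none was called. Idh2, the mitochondrial NADP-dependent isocitrate dehydrogenase, had all 7 RPC values above the RP median and stood at 0.70 (log2 fold change, SE 0.24, edgeR adjusted p = 0.118), while Suclg1, of succinyl-CoA ligase, was at 0.39 (SE 0.14, edgeR adjusted p = 0.138).

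**Figure D5:**
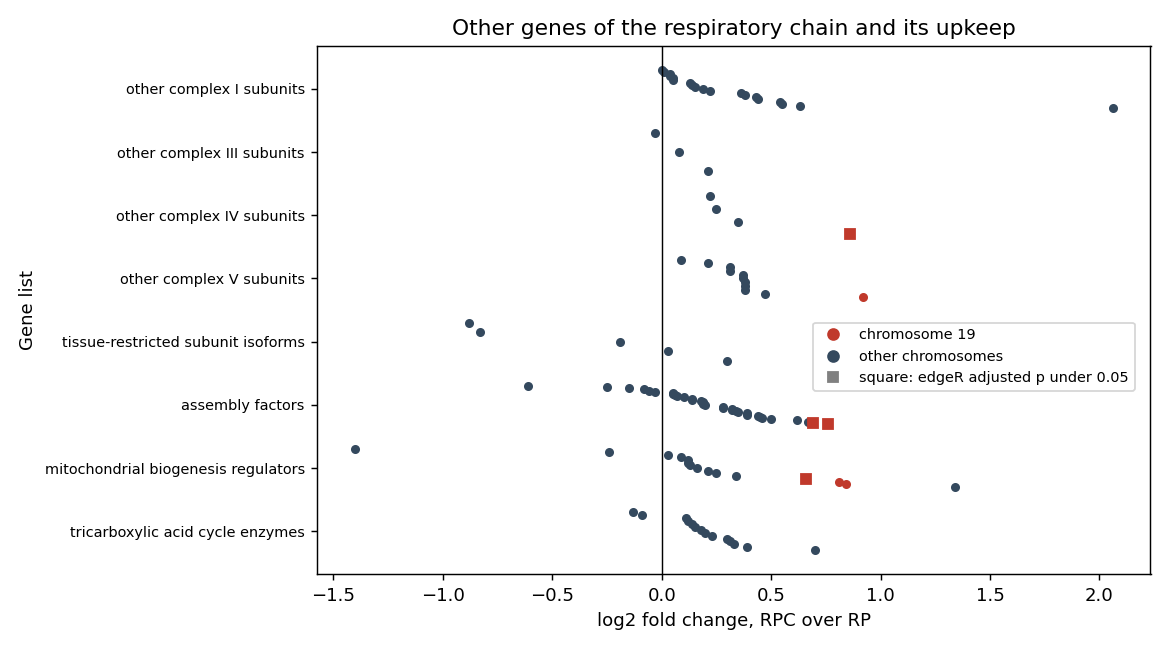
Log2 fold change of RPC over RP (x axis) for 105 tested genes that are no members, by list (y axis), with chromosome 19 genes in red and squares for an adjusted p under 0.05. The 4 squares are Cox8a, Sdhaf2, Cox15 and Esrra, all red, and most points of the 4 subunit lists lie to the right of 0.

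A RefSeq promoter window was matched by symbol for 29 of the 40 members, and 5 motifs were searched on both strands in these and in all 32817 windows of the table. The NRF1 motif was found in 6 of the 29 members (20.7%) and in 4.59% of all windows. Its members were Ndufa5, Sdha, Sdhd, Uqcrc1, Atp5c1 and Atp5o. The ETS motif was found in 7 members (24.1%) and 8.86% of all windows, and the YY1 motif in 3 members (10.3%), Ndufa9, Ndufb8 and Ndufs7, and 2.74% of all windows. The ERR motif was found in 1 member, Sdhd (3.45%), and 0.424% of windows, and the CREB motif in 1, Cycs (3.45%), and 1.79% of windows. These matches describe letters in the windows, and binding was not measured in these data. Members with several start sites were counted once, and 26 of the 29 had 1 window. In the share over all windows each window counted, whether or not its gene passed the filter. The shares are thus in unlike units, and the differences between them were not tested.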

How the data were processed

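RNA of 14 tumours was measured, 7 RP and 7 RPC by the genotype in the labels. Per the labels' protocols, RNA was extracted with TRIzol, and polyadenylated RNA went into NEBNext Ultra libraries. The authors deposited raw read counts per gene symbol, 1 file a library, not normalized. The submitters' processing notes name HTSeq 0.6.1, TopHat2 2.0.12, bcl2fastq 1.8.2 and mm9; strand, annotation and settings are not given there, so reads of a gene and of an antisense neighbour may be mixed. The 5 rows naming no gene, 25.9% to 31.5% of a file's counts, were left out of library sizes and tests. No library was a repeat of another: over 42 same-genotype pairs the lowest chi-square, divided by its degrees of freedom, was 63.2.

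The analysis used edgeR 4.0.16 in R 4.3.3: filterByExpr (minimum count 10, minimum total 15), TMM scaling, and a quasi-likelihood F test between the genotypes without covariates over all 14 libraries, with Benjamini-Hochberg adjustment over 14804 genes at 0.05. The SE is the log2 fold change divided by the root of F; log2 CPM used a prior count of 2. Levels per length used the GENCODE M21 principal transcript. With the longest coding transcript, Ndufb8 in RP was at 24.3 in place of 76.6 CPM per kb and Uqcrq at 63.2 in place of 237. Copies were searched among annotated pseudogenes with blastn 2.17.0 (at least 98% identity over at least 50 bases); they match part of the transcript of 4 members, Ndufs3, Uqcrb, Cox7c and Cycs, and of 16 listed non-members, among them Atp5g2, matched over its whole length, Ndufs5, Usmg5, Atp5f1, Uqcr11 and, over 1.5% of its length, Peo1. Counts of all these genes are uncertain if reads were shared out differently. Chromosomes came from RefSeq (GRCm38.p6) for 14708 tested genes. The fit was tested on simulated data.

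Members, lists, comparisons and alternatives were chosen with earlier results of these data known. Genes were named by rule: the 3 chromosome 19 members; called members; in each complex the 2 smallest p-values and the highest level per length; Cycs; the largest changes each way; in other lists the called genes and up to 2 with the smallest p. Other genes were added for single facts after their values were seen. The alternatives were other scalings, filters and tools (DESeq2 1.42.0, limma-voom 3.58.1), the tumour number as a block, a term for non-tumour markers, and leaving out libraries. Same-numbered tumours deviated with correlations of -0.05 to 0.32, so the numbers were not taken as pairs.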

Additional observations from a re-analysis of the deposited data

Results flagged for a closer look

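In 112 groups of 7 tumours (the 40 members and 16 named genes of other lists, each in both genotypes), a library was called distant where its gap to the nearest other, divided by the range of the group, was above Dixon's 95% critical value. This was so in 12 groups. The critical value allows about 1 in 20 for independent, normally distributed groups. The 112 groups share the same libraries and their genes vary together, so that rate cannot be set against 12 of 112. RP tumour 3 was the distant library in 8 of the 12. Its values were 126.1 CPM for Ndufa9, 135.8 for Ndufv2, 160.8 for Sdhd, 146.6 for Cox5a, 1914 for Atp5b, 258.3 for Atp5c1, 255.1 for Atp5o and 149.1 for Uqcrfs1, against 85.2, 81.6, 120.3, 93.9, 1076, 181.9, 179.4 and 109 CPM in the nearest RP tumour. None of these 8 genes passed the test with all libraries. Without RP 3, Ndufv2 passed it, and the log2 fold change of Atp5b was 0.54 in place of 0.35 without passing. The muscle markers summed to 112 CPM in the same library, and their part in these levels was not tested.

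RPC tumour 5 was distant for Sdhb at 276.3 CPM, with the next at 168, and for Esrra at 41.35 CPM, with the next at 32.2. RPC tumour 3 was distant for Ndufa3 at 67.89 CPM, with the next at 42.9. RPC tumour 1 was low for Sdhaf2 at 24.86 CPM, with the next at 35.5; without it the log2 fold change of Sdhaf2 was 0.77 in place of 0.69 (edgeR adjusted p = 0.0166).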

How the results depend on the processing

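The member called higher numbered 1 in the fit described. The count was 5 with DESeq2 (Ndufb8, Ndufs8, Cox7b, Cox7c and Atp5a1), and 0 with the tumour number as a replicate block, with a term for non-tumour markers or without RPC tumours 3, 5 and 6; it ran from 0 to 4 when single libraries were left out. It was 0 without RP 2, 4, 5 or 6 or RPC 3 or 6, 2 without RPC 1, and 4 without RP 3 or RPC 7. No member was called lower under any of these alternatives. Genes called in the other lists numbered 4, against 2 with no filter, 8 with DESeq2, 7 with limma-voom, 0 with the block, 0 with the marker term and 0 without RPC tumours 3, 5 and 6, and 0 to 12 with a library left out (12 without RP 3). These counts for the other lists take both directions. Ndufaf3, with a log2 fold change of -0.61 in the fit described, was among the genes called with DESeq2, with limma-voom and without RP 3. Ppargc1b, at -1.4 in the fit described, was among those called without RP 3. Over all genes, calls numbered 327, against 1424 with DESeq2, 503 with limma-voom, 74 with the block, 7 with the marker term, 11 without RPC tumours 3, 5 and 6, and 51 (without RP 6) to 898 (without RP 3) with a library left out. Positive members numbered 38, and 37 with unscaled totals, 28 with the marker term and 33 without the 3 libraries. With a library left out they numbered 35 to 39. Over all genes, 50.2% were positive in the fit described and 47.9% with the marker term.

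Ndufb8 stood at 0.83 under the block (edgeR adjusted p = 0.0812), 0.54 with the marker term (edgeR adjusted p = 0.246) and 0.54 without the 3 libraries (edgeR adjusted p = 0.22). With single libraries left out it ran from 0.78 to 0.98, passing in 8 of 14 fits (edgeR adjusted p from 0.0135 to 0.0648). Ndufs8 passed with DESeq2 (0.64, DESeq2 adjusted p = 0.017) and in 2 of 14 left-out fits, without RPC 1 or RPC 7 (0.55 to 0.73). Of the 4 other called genes, Cox15 passed in 11 of 14 left-out fits, Cox8a in 9, Sdhaf2 in 3 and Esrra in 2. Under the block none of them passed. With the marker term the medians of complexes I to V were 0.09, 0.01, 0.00, 0.03 and 0.11. With a library left out they ran from 0.27 to 0.40, 0.11 to 0.28, 0.13 to 0.26, 0.30 to 0.55 and 0.26 to 0.50. Signs reversed for Cycs (-0.04 with the marker term and -0.04 without the 3 libraries), Sdhc (-0.01), Uqcrfs1 (-0.03) and Uqcr11 (-0.11) with the marker term, and Uqcr11 without the 3 libraries (-0.02) and in 3 left-out fits (-0.04 to 0.16 over all 14). None of these had passed, and the cause was not tested. The tumour numbers were no shown pairs: tumours 3 and 5 alone correlated best with their own number. In this small design, with members' SEs of 0.10 to 0.27, a member that did not pass was not shown to be equal between genotypes.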

Other observations

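Among the regulators of mitochondrial biogenesis, the PGC-1 coactivators had unlike values. Ppargc1a, which encodes PGC-1-alpha, spanned 1.0 to 23.4 CPM over RP tumours and 10.3 to 86.7 CPM over RPC tumours, with RPC 5 far above the rest and all 7 RPC values above the RP median (log2 fold change 1.34, SE 0.60, edgeR adjusted p = 0.215). Without RPC tumours 3, 5 and 6 its log2 fold change was 0.61. Ppargc1b, which encodes PGC-1-beta, was lower on average in RPC: it spanned 0.41 to 6.29 CPM over RP tumours and 0.52 to 2.19 CPM over RPC tumours, with all 7 RPC values below the RP median (log2 fold change -1.40, SE 0.51, edgeR adjusted p = 0.137). Peo1, the mitochondrial DNA helicase on chromosome 19, spanned 18.3 to 47.2 CPM over RP tumours and 31.7 to 60.3 CPM over RPC tumours (log2 fold change 0.81, SE 0.24, edgeR adjusted p = 0.0792). All 3 were named after their values were seen.

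Per transcript length, the 5 ATP synthase members ranged from 146 to 577 CPM per kb in RP tumours, the complex IV members from 68.5 to 444, the complex III members from 80.9 to 237, the complex I members from 34.0 to 199 and the complex II members from 16.4 to 109.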
